A study of Mus musculus with 12 samples.

Results

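The transcription factors GATA1, GATA2, FOG1 (gene Zfpm1) and the SCL complex (Tal1, Lyl1, Lmo2, Ldb1, Tcf3 and Tcf12) were followed in mouse PreMegEs, bone marrow cells that can still become megakaryocytes or erythroid cells. The 9 genes were taken from the count table by their symbol, and were 9 of 41128 genes in the table. RNA was sequenced from PreMegEs of C57BL/6 mice of 12 to 16 weeks of age in 4 groups of 3 libraries, and each library held cells pooled from 3 mice. The study's methods, which give this age and pooling, do not name the KO libraries, so both are assumed for them. WT PreMegEs came from wild type mice, and P2+ and P2- PreMegEs came from Runx1 P1-GFP::P2-hCD4/+ mice, in which 1 allele of Runx1 carries GFP at its distal promoter (P1) and a truncated human CD4 at its proximal promoter (P2). Both fractions were GFP positive, and they were separated by the hCD4 reporter. The 4th group, KO, is labelled as RUNX1C knockout, RUNX1C being the isoform made from P1, and the labels name no allele for it. Both fractions therefore carry the reporter allele that WT cells lack, so that fraction and genotype cannot be told apart where either is compared with WT. None of the sources used here says whether the KO libraries were prepared and sequenced together with the others, so a difference in handling and the knockout cannot be told apart either. The spread between libraries is that of pools and not of single mice.

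GATA1 and GATA2 are zinc finger proteins that bind the same DNA motif. GATA2 acts in stem and early progenitor cells, and GATA1 takes its place on many sites as erythroid cells and megakaryocytes mature. FOG1 is a cofactor that binds GATA1 and carries the NuRD and CtBP corepressors. TAL1, also called SCL, and its paralog LYL1 bind E-box DNA as partners of the E proteins, which Tcf3 (E2A) and Tcf12 (HEB) encode. LMO2 does not bind DNA and bridges TAL1 and GATA1, and LDB1 holds LMO2 and joins distant sites into loops.

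The libraries held between 10726098 and 14445026 counts, and 3 counts, the limit that a count of 0 allows, corresponded to between 0.207 and 0.288 CPM (counts relative to the TMM-scaled library total). Each of the 9 genes lay far above this limit in every library, and each passed the filter in all 6 comparisons of the groups. The label of the cells was checked with the genes of the sorting gate. Kit lay between 732 and 1156 CPM and Slamf1 (CD150) between 34.1 and 65.5 CPM, while Fcgr3 (CD16) did not exceed 2.01 CPM and Fcgr2b (CD32) lay between 16.1 and 17.1 CPM in P2+ and at 12.4 CPM or less in the other groups. Eng (Endoglin) and Itga2b (CD41), whose proteins were gated out, were present as RNA, Eng at 93.9 to 153 CPM and Itga2b at 38.7 to 320 CPM. Replicate 2 of P2- and of P2+ stood apart from the other 10 libraries. The 6 immediate early genes summed to 11578 and 7632 CPM in these libraries and to between 136 and 1055 CPM elsewhere. Xist, made from the inactive X chromosome of females, was at 0 and 5.18 CPM in the same libraries and at 713 to 2730 CPM in the others. Replicate 3 of P2- and of P2+ also differed from the rest, with the Y-linked genes Ddx3y, Eif2s3y, Kdm5d and Uty at 0, while these were present in the other 10 libraries. The counts of genes that differed between P2+ and P2- were therefore also made without replicate 2 of both, and in the comparisons with WT or the KO and for the ratio of Gata2 to Gata1 each library was left out in turn.

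RNA of all 9 genes was present in PreMegEs, and per length of transcript their levels spanned a wide range. On the RPKM scale (CPM per kilobase of exon, over all annotated transcripts of a gene), Lmo2 had the highest level in WT PreMegEs (319 ± 15.7, SD, n = 3). It was followed by Gata2 (212 ± 10.8), Zfpm1 (181 ± 9.54), Tal1 (127 ± 2.60) and Gata1 (94.6 ± 1.75). Ldb1 (82.1 ± 5.31), Lyl1 (62.5 ± 3.60) and Tcf3 (53.9 ± 1.31) came next. Tcf12 was lowest (10.2 ± 0.263), over an exonic length of 15529 bases that includes transcripts which PreMegEs may not use.

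Between the fractions the genes of the complex moved in both directions. Of the 9 genes, 5 differed between P2+ and P2- PreMegEs at an adjusted p under 0.05 (edgeR's quasi-likelihood test, Benjamini-Hochberg adjustment over 12836 genes), while 37.1% of all genes tested did so. Gata1, Ldb1 and Tcf3 were lower in P2+ PreMegEs (17.0% of all genes were), and Zfpm1 and Lmo2 were higher (20.1% of all genes were). Gata2, Tal1, Lyl1 and Tcf12 did not pass the test. The libraries of the 2 fractions did not overlap for the same 5 genes, as for 49.9% of all genes tested. Ldb1 alone changed by at least 2-fold, as did 12.7% of all genes. The median log2 fold change was -0.04 over the 9 genes and -0.02 over all genes. Without replicate 2 of both fractions, 5 of the 9 genes again passed the test, 2 higher and 3 lower, beside 37.1% of 12271 genes.

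**Figure D1:**
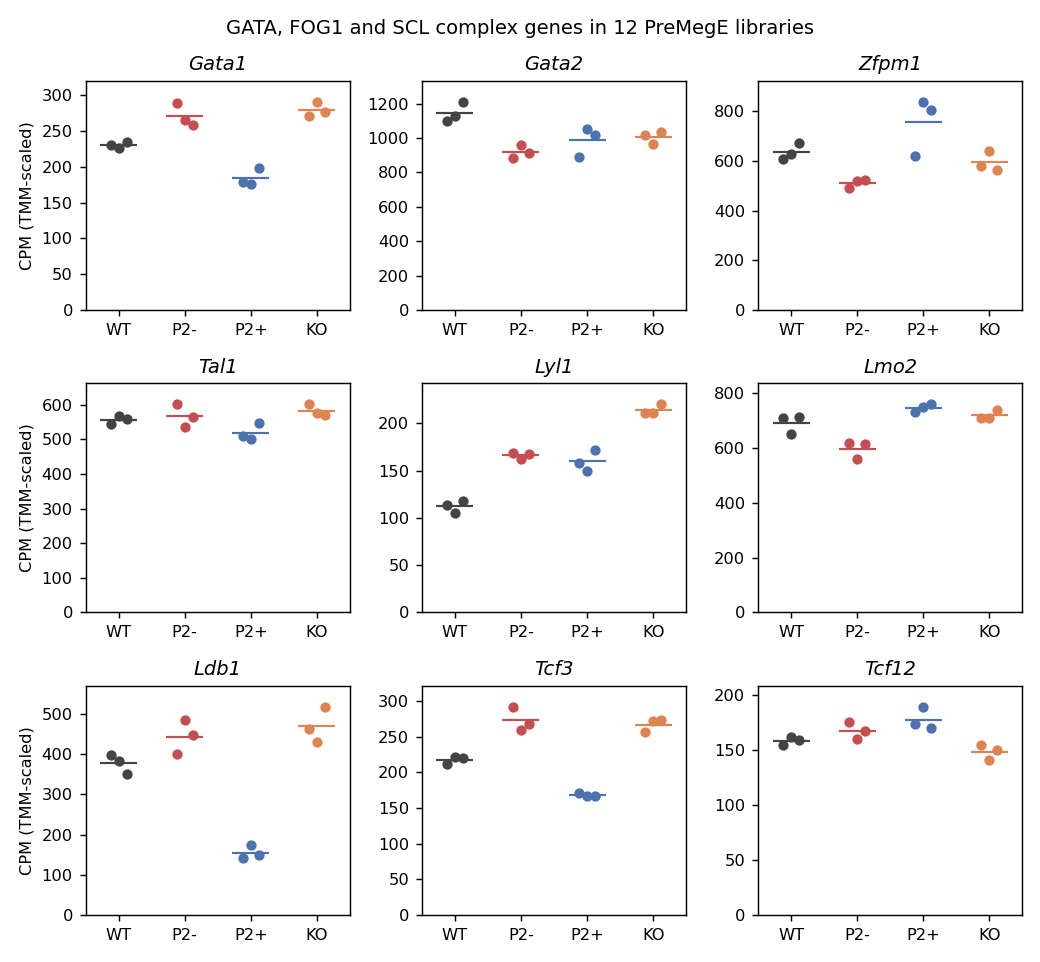
CPM (TMM-scaled, axes from 0) of the 9 genes in each library of WT, P2-, P2+ and KO PreMegEs, with replicates 1 to 3 from left to right as points and the group mean as a line. Ldb1 in P2+ PreMegEs lies between 142 and 174 CPM, below all other groups, and Lyl1 rises from WT (mean 112 CPM) to the KO (mean 214 CPM).

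Ldb1 (ENSMUSG00000025223, chromosome 19 from 46031570 to 46045214 of GRCm38, minus strand) changed the most of the 9. It had 401, 484 and 447 CPM in the P2- libraries and 142, 174 and 149 CPM in the P2+ libraries, in the order of the replicates. WT libraries had 399, 384 and 351 CPM, and KO libraries 462, 431 and 518 CPM. No library of P2+ reached the lowest of the other 9. Ldb1 was 2.84-fold lower in P2+ than in P2- PreMegEs (log2 fold change -1.50, SE 0.11, adjusted p = 1.54e-05) and 2.43-fold lower than in WT (-1.28, SE 0.10, adjusted p = 1.84e-05). Within the pairs of P2+ and P2- libraries of the same number, the log2 ratio was -1.50, -1.48 and -1.58. P2- and WT PreMegEs did not differ by the test (0.23, SE 0.09, adjusted p = 0.105), nor did KO and P2- (0.08, SE 0.09, adjusted p = 0.723). At its 5′ end Ldb1 shares 177 exonic bases, 3.84% of its exonic length, with Pprc1 on the other strand. Pprc1 was itself lower in P2+ PreMegEs (log2 fold change -0.69, adjusted p = 1.87e-04), with means of 325 CPM in P2- and 200 CPM in P2+. The use of strand in counting is not given in the sources used here, so that reads from the shared bases cannot be assigned.

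GATA motifs near the start sites of these genes are shown because GATA and SCL proteins bind such sites together. The RefSeq promoter table (GRCm38.p6, 250 bases before to 50 after a start) matched 8 of the 9 genes, with 14 start sites, and Lmo2 had no entry. The GATA word AGATAA, the word AGATAG, the word TGATAA or the word TGATAG, on either strand, was found at 2 of the 14 starts and at 29.8% of all 32851 starts. The matches were at a start of Tal1 and at an internal start of Ldb1. The Tal1 stretch lies upstream of the gene at chr4:115056211-115056236 (plus strand) and holds 1 match, 205 bases before the start. The Ldb1 stretch lies in an intron of the gene at chr19:46037255-46037320 (minus strand) and holds 2 matches, 240 and 200 bases before the internal start. Capitals mark the matches, here on the complementary strand.
Tal1: atagagtcttTTATCTttgagcaatt
Ldb1: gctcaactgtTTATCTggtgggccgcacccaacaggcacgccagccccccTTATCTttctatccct
The E-box word CAGCTG or the word CAGATG was found at 3 of the 14 starts (in Gata2, Tal1 and Tcf12) and at 30.6% of all starts. The RUNX word TGTGGT or the word TGCGGT was found at 0 of the 14 and at 22.4% of all starts. Such matches describe letters in a window and not binding.

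Of the GATA factors, Gata1 differed between the fractions and Gata2 did not pass the test. Gata1 (ENSMUSG00000031162, chromosome X from 7959260 to 7978071, minus strand) had 289, 265 and 259 CPM in the P2- libraries and 179, 176 and 198 CPM in the P2+ libraries. The WT libraries, at 231, 226 and 235 CPM, lay between the fractions without overlap. The KO libraries, at 271, 291 and 277 CPM, overlapped those of P2-. Gata1 was 1.46-fold lower in P2+ than in P2- PreMegEs (log2 fold change -0.54, SE 0.08, adjusted p = 8.94e-04). Its levels, from high to low, ran KO, P2-, WT, P2+, and of the neighbours in this order WT and P2+ differed (-0.32, SE 0.08, adjusted p = 0.0178). P2- and WT missed the threshold (0.24, SE 0.08, adjusted p = 0.0586), but passed it without replicate 2 of P2- (0.0381), with DESeq2 (0.0219) and in the fit over all 12 libraries (0.0382). KO and P2- did not pass (0.04, SE 0.07, adjusted p = 0.820). The difference of P2+ from WT missed the threshold with edgeR's exact test (adjusted p = 0.0544), without replicate 1 of P2+ (adjusted p = 0.0568) or without replicate 1, 2 or 3 of WT (0.0600, 0.0545 and 0.0535). Gata1 lies on the X chromosome, and the libraries with little Xist, at 265 CPM in P2- and 176 CPM in P2+, had a log2 ratio of -0.59 within their pair. It was -0.39 in the pair without Y-linked RNA and -0.69 in replicate 1.

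Gata2 (ENSMUSG00000015053, chromosome 6 from 88193891 to 88207032, plus strand) had 882, 960 and 914 CPM in P2- and 891, 1050 and 1015 CPM in P2+ PreMegEs, with overlap. WT libraries had 1098, 1125 and 1210 CPM, above all other libraries, and KO libraries had 1018, 963 and 1037 CPM. The fractions did not differ by the test (log2 fold change 0.11, SE 0.08, adjusted p = 0.301). Gata2 was lower than in WT in P2- PreMegEs (-0.32, SE 0.07, adjusted p = 0.0103) and in the KO (-0.19, SE 0.06, adjusted p = 0.0397), while P2+ and WT missed the threshold (-0.21, SE 0.07, adjusted p = 0.0769). The difference of the KO did not hold without any 1 of the 3 KO libraries (adjusted p = 0.0959, 0.157 and 0.0915 without replicates 1, 2 and 3), nor without replicate 2 or 3 of WT (0.0663 and 0.102). It was lost as well in the fit over all 12 libraries (0.0778). The difference of P2- and WT was lost with edgeR's exact test (adjusted p = 0.171). The difference of P2+ and WT passed the threshold without replicate 2 of P2+ (-0.26, adjusted p = 0.0470), and also with library totals alone, DESeq2, no filter and the fit over all 12 libraries (0.0450, 0.0428, 0.0420 and 0.0451).

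Counted in the same library, Gata2 exceeded Gata1 in all 12 libraries. The log2 ratio of Gata2 to Gata1 counts was 1.61, 1.86 and 1.82 in P2- and 2.32, 2.57 and 2.36 in P2+ PreMegEs. In WT it was 2.25, 2.31 and 2.37, and in the KO 1.91, 1.73 and 1.90. The P2+ and WT libraries together lay above all P2- and KO libraries. The mean ratio was higher in P2+ than in P2- by 0.66 on the log2 scale, or 1.57-fold, and in the KO it fell by 0.46 relative to WT. Each difference had p = 0.1 in an exact two-sided permutation test, the smallest p that 3 libraries against 3 allow. Within the pairs of P2+ and P2- libraries the differences were 0.71, 0.72 and 0.54, with p = 0.25 from exact sign flips of the paired differences, the smallest p that 3 pairs allow. The same ratio for the E proteins, Tcf12 to Tcf3, was 0.07 ± 0.09 (SD, n = 3) in P2+ and -0.71 ± 0.03 in P2- PreMegEs, -0.46 ± 0.01 in WT and -0.85 ± 0.11 in the KO. For Lmo2 to Ldb1 it was 2.28 ± 0.14 in P2+, 0.43 ± 0.21 in P2-, 0.87 ± 0.13 in WT and 0.62 ± 0.10 in the KO. For Tal1 to Lyl1 the fractions were close, at 1.70 ± 0.03 in P2+ and 1.77 ± 0.05 in P2-, with WT at 2.31 ± 0.11 and the KO at 1.44 ± 0.07. These 3 ratios are given without a test.

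**Figure D2:**
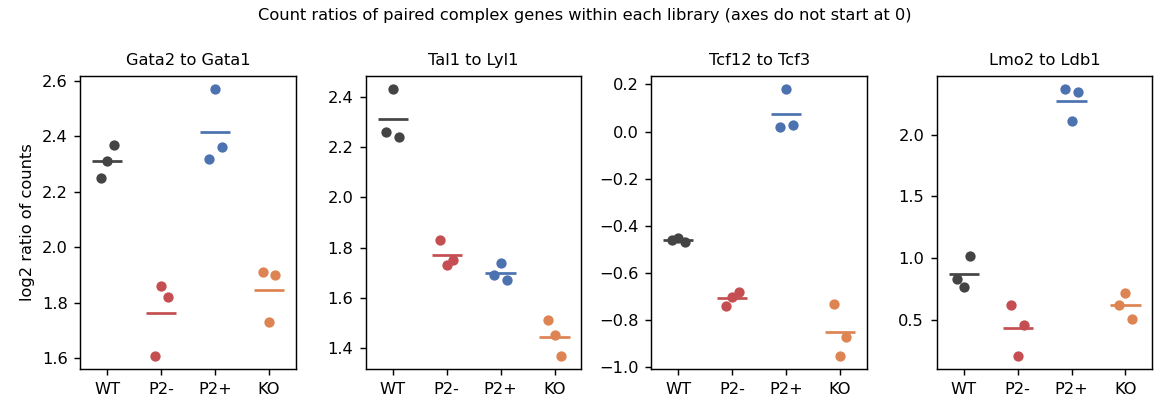
Log2 ratio of the counts of 2 genes in the same library (vertical axes differ and do not start at 0), with points for replicates 1 to 3 and lines for group means. Gata2 to Gata1 is higher in WT and P2+ (means 2.31 and 2.42) than in P2- and KO PreMegEs (1.76 and 1.85), and Tal1 to Lyl1 is lowest in the KO (1.44).

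Zfpm1, encoding FOG1 (ENSMUSG00000049577, chromosome 8 from 122282141 to 122337251, plus strand), had 491, 520 and 523 CPM in P2- and 619, 837 and 806 CPM in P2+ PreMegEs. WT libraries had 606, 629 and 672 CPM, and KO libraries 579, 641 and 564 CPM. Replicate 1 of P2+ lay among the WT libraries and the others above them. Zfpm1 was 1.49-fold higher in P2+ than in P2- PreMegEs (log2 fold change 0.57, SE 0.11, adjusted p = 0.00391), with log2 ratios of 0.34, 0.69 and 0.62 within the pairs. It was also lower in P2- than in WT (-0.31, SE 0.07, adjusted p = 0.0157), a call that was lost with edgeR's exact test (adjusted p = 0.148), without replicate 1 of P2- (adjusted p = 0.0559) or replicate 2 or 3 of WT (0.0538 and 0.0541). P2+ and WT did not differ by the test (0.25, SE 0.11, adjusted p = 0.135), except without replicate 1 of P2+ (0.38, adjusted p = 0.0107). No neighbours in the order P2+, WT, KO, P2- differed by the test.

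Tal1 (ENSMUSG00000028717, chromosome 4 from 115056426 to 115071755, plus strand) varied little between the groups. It had 545, 568 and 558 CPM in WT, 601, 536 and 564 in P2-, 510, 501 and 546 in P2+ and 601, 575 and 570 in KO libraries. All neighbours in its order overlapped, and no comparison of groups passed the test, the lowest adjusted p being 0.0696 for the KO against P2+ (log2 fold change 0.15, SE 0.06), which was 0.0477 without replicate 3 of P2+.

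Its paralog Lyl1 (ENSMUSG00000034041, chromosome 8 from 84701457 to 84704715, plus strand) took another course. WT libraries had 114, 105 and 118 CPM, P2- libraries 169, 162 and 168, P2+ libraries 158, 150 and 172, and KO libraries 211, 211 and 220 CPM. The fractions overlapped, all of their libraries lay above WT, and all KO libraries lay above the fractions. Lyl1 did not differ between the fractions (log2 fold change -0.04, SE 0.07, adjusted p = 0.708). It was higher than in WT in P2+ (0.51, SE 0.08, adjusted p = 0.00199), in P2- (0.56, SE 0.07, adjusted p = 6.82e-04) and in the KO, by 1.89-fold (0.92, SE 0.07, adjusted p = 3.55e-08). The KO also exceeded P2+ (0.41, SE 0.07, adjusted p = 0.00143) and P2- (0.36, SE 0.06, adjusted p = 0.0212), but the latter was lost without replicate 1, 2 or 3 of the KO (adjusted p = 0.10, 0.0969 and 0.123). Lyl1 shares 4 exonic bases with Nfix on the other strand.

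The bridging factor Lmo2 (ENSMUSG00000032698, chromosome 2 from 103957986 to 103981878, plus strand) had 617, 559 and 615 CPM in P2- and 733, 751 and 760 CPM in P2+ PreMegEs. WT libraries had 709, 653 and 714 CPM, and KO libraries 710, 710 and 738 CPM. The P2- libraries lay below the other 9. Lmo2 was 1.26-fold higher in P2+ than in P2- PreMegEs (log2 fold change 0.34, SE 0.07, adjusted p = 0.00485; with edgeR's exact test, the adjusted p was 0.108). Neither fraction differed from WT by the test (P2+ 0.12, SE 0.06, adjusted p = 0.237; P2- -0.21, SE 0.07, adjusted p = 0.0714), though P2- passed with library totals alone (0.0339), DESeq2 (0.0345) and the fit over all 12 libraries (0.0107). Lmo2 thus rose where Ldb1, its direct partner, fell.

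The E protein genes also parted. Tcf3 (ENSMUSG00000020167, chromosome 10 from 80409514 to 80433647, minus strand) had 292, 260 and 268 CPM in P2- and 171, 167 and 167 CPM in P2+ PreMegEs. WT libraries, at 212, 221 and 220 CPM, lay between the fractions, and KO libraries, at 256, 272 and 273 CPM, overlapped P2-. Tcf3 was 1.61-fold lower in P2+ than in P2- PreMegEs (log2 fold change -0.69, SE 0.07, adjusted p = 1.35e-04) and lower than in WT (-0.37, SE 0.07, adjusted p = 0.00614). It was higher than in WT in P2- (0.33, SE 0.08, adjusted p = 0.0162), which was lost with edgeR's exact test (adjusted p = 0.0657), without replicate 1 of P2- (0.0505) or replicate 1 or 2 of WT (0.0779 and 0.0534), and in the KO (0.29, SE 0.06, adjusted p = 0.00295).

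Tcf12 (ENSMUSG00000032228, chromosome 9 from 71842688 to 72111871, minus strand) had 154, 162 and 159 CPM in WT, 175, 160 and 167 in P2-, 173, 189 and 170 in P2+ and 154, 141 and 150 in KO libraries. The fractions overlapped and did not differ by the test (log2 fold change 0.10, SE 0.07, adjusted p = 0.332). The only comparison that passed was KO against P2+ (-0.27, SE 0.08, adjusted p = 0.0148), and it did not pass without replicate 2 of the KO (-0.24, adjusted p = 0.0689).

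**Figure D3:**
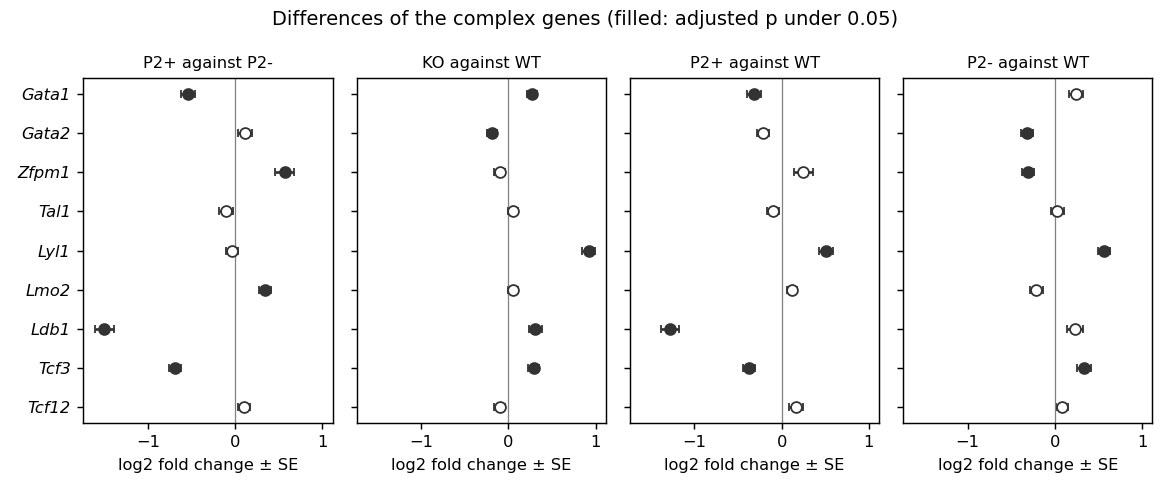
Log2 fold changes of the 9 genes (points, with SE) in P2+ against P2-, KO against WT, P2+ against WT and P2- against WT, filled where the adjusted p is under 0.05. Ldb1 lies at -1.50 and -1.28 in the comparisons of P2+, and Lyl1 at 0.51 to 0.92 in the 3 comparisons with WT.

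Against WT, 4 genes differed in P2+ (Lyl1 higher, and Gata1, Ldb1 and Tcf3 lower), where 16.5% of 12941 genes tested did (9.45% higher and 7.07% lower), and 4 in P2- (Lyl1 and Tcf3 higher, and Gata2 and Zfpm1 lower), where 16.5% of 12767 did (6.85% higher and 9.60% lower). The groups did not overlap for 7 of the 9 genes in each of these comparisons, against 35.5% and 35.1% of all genes. Both comparisons share the WT libraries. The mean of WT lay between those of the fractions for 6 genes, as it did for 59.6% of 12836 genes. It lay above both for Gata2 (19.7% of genes) and below both for Lyl1 and Tcf12 (20.8% of genes).

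In the KO, 5 of the 9 genes differed from WT, where 14.9% of 12784 genes did. Gata1 (log2 fold change 0.27, SE 0.06, adjusted p = 0.00407), Lyl1, Ldb1 (0.31, SE 0.07, adjusted p = 0.00637) and Tcf3 were higher, as were 6.18% of all genes, and Gata2 was lower, as were 8.76%. None of the 9 changed by 2-fold or more, as 3.41% of all genes did. KO and WT libraries did not overlap for 6 of the 9 genes and for 31.8% of all genes. The call of Ldb1 was lost without replicate 3 of the KO (0.23, adjusted p = 0.0705) and in the fit over all 12 libraries (0.30, adjusted p = 0.0665), and Zfpm1 (-0.10, SE 0.06), Tal1 (0.05, SE 0.06), Lmo2 (0.05, SE 0.06) and Tcf12 (-0.10, SE 0.06) did not pass. Runx1 cannot check the knockout here, since its count (341 to 381 CPM in the KO and 357 to 387 CPM in WT) covers both promoters.

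Against P2- PreMegEs, the KO differed in 1 gene, Lyl1, where 1.61% of 12588 genes differed (1.33% higher in the KO), and 5 of the 9 genes did not overlap, against 21.5% of all genes. Gata1, Gata2, Zfpm1 and Tal1 did not pass there (log2 fold change 0.04, 0.13, 0.21 and 0.03). Nor did Lmo2, Ldb1, Tcf3 and Tcf12 (0.26, 0.08, -0.04 and -0.18). Against P2+ PreMegEs the KO differed in 6, where 37.1% of 12807 genes did (16.7% higher and 20.3% lower). Gata1 (log2 fold change 0.59, SE 0.07), Lyl1, Ldb1 (1.59, SE 0.10) and Tcf3 (0.65, SE 0.07) were higher in the KO, and Zfpm1 (-0.36, SE 0.10, adjusted p = 0.0197) and Tcf12 were lower. Gata2 (0.02, SE 0.07), Tal1 (0.15, SE 0.06) and Lmo2 (-0.07, SE 0.05) did not pass. Zfpm1 lost its call without replicate 1 or 3 of the KO (adjusted p = 0.0744 and 0.0889) or replicate 3 of P2+ (0.0624). The libraries did not overlap for 6 of the 9 genes and for 50.5% of all genes.

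The other partners of the SCL complex and the regulators of E proteins include Runx1, which the hCD4 sort follows. In P2+ against P2- PreMegEs, 3 of the 10 genes tested were higher and 2 lower (20.1% and 17.0% of all genes were), with a median log2 fold change of 0.28 beside -0.02 for all genes. Without Runx1, 2 of 9 were higher and 2 lower, with a median of 0.20. Runx1 (1.59, SE 0.07), for that reason no result, Tcf4, encoding a further E protein (0.59, SE 0.07), and Lmo4 (0.51, SE 0.13) were higher. Ssbp3, whose product binds and protects LDB1, was lower in P2+ (-0.67, SE 0.08, adjusted p = 2.69e-04), with 106, 118 and 110 CPM in P2- and 64.7, 72.5 and 70.2 CPM in P2+ libraries. It thus moved in the same direction as Ldb1, while Ssbp2 (0.20, SE 0.11) and Ssbp4 (0.36, SE 0.17) did not pass the test. Cbfa2t3, encoding the corepressor ETO2, was lower (-0.24, SE 0.08, adjusted p = 0.0470), a call lost without any 1 of 5 libraries (replicate 1 or 2 of P2+, or replicate 1, 2 or 3 of P2-, adjusted p = 0.0785 to 0.170) and with library totals alone, edgeR's exact test and no filter (0.0717, 0.249 and 0.0559). Lmo4 was lost without replicate 3 of P2+ (adjusted p = 0.0614) or replicate 1 of P2- (0.0592). Without replicate 2 of both fractions, 3 of 8 genes, Runx1 among them, were higher and 1 was lower. In the KO against WT, 2 of 9 genes differed (14.9% of all genes did), both of them lower (8.76% of all genes were), Tcf4 (-0.57, SE 0.08, adjusted p = 5.21e-05) and Lmo4 (-0.48, SE 0.14, adjusted p = 0.0278), the latter lost without replicate 3 of the KO (0.167) or replicate 1 or 3 of WT (0.0746 and 0.0999) and in the fit over all 12 libraries (0.0572). The median was -0.05. Ldb2, Tal2, Id3 and Id4 missed the filter in both comparisons, and Id1 missed it in the KO against WT.

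Of the paralogs of the GATA factors and FOG1, Gata3 alone passed the filter, and Gata4, Gata6 and Zfpm2 did not. Gata3, known for its role in T cells, was low, with 4.14, 7.20 and 6.92 CPM in P2- and 8.54, 14.6 and 12.9 CPM in P2+ libraries. It was higher in P2+ (log2 fold change 1.0, SE 0.28, adjusted p = 0.0207), but not without replicate 2 or 3 of P2+ (adjusted p = 0.0628 and 0.0624) or replicate 1 of P2- (0.0586). It did not differ between the KO and WT by the test (0.14, SE 0.18).

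FOG1 recruits the NuRD and CtBP corepressors. All 12 genes of NuRD and CtBP were tested. In P2+ against P2- PreMegEs 3 of the 12 differed, beside 37.1% of all genes. Of these, 1 was higher, Ctbp2 (log2 fold change 0.72, SE 0.13, adjusted p = 0.00258), and 2 were lower, Gatad2a (-0.29, SE 0.07, adjusted p = 0.0114) and Mta2 (-0.24, SE 0.07, adjusted p = 0.0287), with a median of -0.11. Both of the lower genes lost their call with edgeR's exact test (adjusted p = 0.0824 and 0.213) and without replicate 1 of P2+ (adjusted p = 0.0510 and 0.0926), and Mta2 also without replicate 3 of P2+ or replicate 1 or 2 of P2- (0.110, 0.0695 and 0.0698). Without replicate 2 of both fractions the counts were again 1 and 2. In the KO against WT 0 of 12 genes passed edgeR's quasi-likelihood test, DESeq2 or edgeR's exact test, 2 had an unadjusted p under 0.05, and the median was -0.02. Of all genes, 14.9% passed the quasi-likelihood test there.

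The targets of these factors are given in 3 groups. Of the erythroid targets of GATA1 and TAL1, 5 of the 10 tested were lower in P2+ than in P2- PreMegEs (17.0% of all genes were) and none was higher (20.1% of all genes were), with a median log2 fold change of -0.50. Ermap, a membrane protein of erythroid cells (-5.31, SE 0.40), and Klf1, the erythroid Kruppel-like factor (-2.71, SE 0.09), fell the most, and Epor (-1.63, SE 0.12) and Gfi1b (-0.76, SE 0.15) were also lower. Ermap had 990, 729 and 994 CPM in P2- and 33.8, 23.8 and 10.2 CPM in P2+ libraries. The 5 that did not pass were Hbb-bt (0.94, SE 0.75), Trim10 (0.78, SE 0.80), Slc4a1 (0.51, SE 0.62), Hbb-bs (0.08, SE 0.65) and Epb42 (-0.24, SE 0.40). Without replicate 2 of both, 5 of 9 were lower. In the KO against WT 6 of 11 were higher (6.18% of all genes were) and none was lower (8.76% of all genes were), with a median of 0.52. The largest rises were in Ermap (0.99, SE 0.09), Epb42 (0.90, SE 0.24) and Klf1 (0.69, SE 0.06), and Epb42 lost its call without replicate 2 of the KO (adjusted p = 0.106) or replicate 2 of WT (0.0514) and in the fit over all 12 libraries (0.126). Hba-a1 and Hba-a2 missed the filter, Alas2 missed it in P2+ against P2-, and Ahsp was not analysed here. Between P2+ and WT, 4 of 11 erythroid targets were lower (7.07% of all genes were) and none was higher (9.45% of all genes were), while the median over the list was 0.21.

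Of the megakaryocyte targets of GATA1, 7 of the 9 tested were higher in P2+ than in P2- PreMegEs (20.1% of all genes were) and none was lower (17.0% of all genes were), with a median of 2.16. Pf4, encoding platelet factor 4 (4.06, SE 0.32), and Gp1bb, a subunit of the receptor for von Willebrand factor (3.94, SE 0.37), rose the most, and Gp6 missed the filter. Gp1bb shares 91.1% of its exonic length with transcripts of Sept5, so its count is uncertain. Without replicate 2 of both, 7 of 9 were again higher. In the KO against WT, 4 of 9 were lower and 2 higher (8.76% and 6.18% of all genes were), with a median of -0.24. Pf4 (-2.14, SE 0.12) and Gp1bb (-1.35, SE 0.14) fell the most, and Ppbp (0.70, SE 0.22) and Gp5 (0.39, SE 0.07) rose. The call of Ppbp was lost without replicate 1 or 3 of the KO (adjusted p = 0.253 and 0.101) or replicate 1 or 3 of WT (0.0885 and 0.105) and in the fit over all 12 libraries (0.614).

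Kit, Myb, Myc and Hhex are repressed by GATA1 as erythroid cells mature. In P2+ PreMegEs, 3 of these 4 were lower than in P2- (17.0% of all genes were), namely Myb (log2 fold change -1.24, SE 0.07), Myc (-0.98, SE 0.12) and Kit (-0.37, SE 0.10), with a median of -0.67. A link to the level of Gata1 was not tested. Kit, which is also a gene of the gate, lost its call with edgeR's exact test (adjusted p = 0.132), without replicate 1 or 2 of P2+ (adjusted p = 0.0629 and 0.0666) or replicate 1 or 3 of P2- (0.0751 and 0.0865). Without replicate 2 of both, all 4 were lower. In the KO against WT, Myb (0.23, SE 0.07) and Kit (0.21, SE 0.07) were higher and Hhex (-0.29, SE 0.06) was lower. Myb and Kit each lost their call without replicate 2 or 3 of the KO or replicate 1 or 3 of WT (adjusted p = 0.0711 to 0.0987 for Myb and 0.108 to 0.219 for Kit). Kit also lost it with library totals alone (0.0627) and in the fit over all 12 libraries (0.189), as did Hhex in that fit (0.0750).

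**Figure D4:**
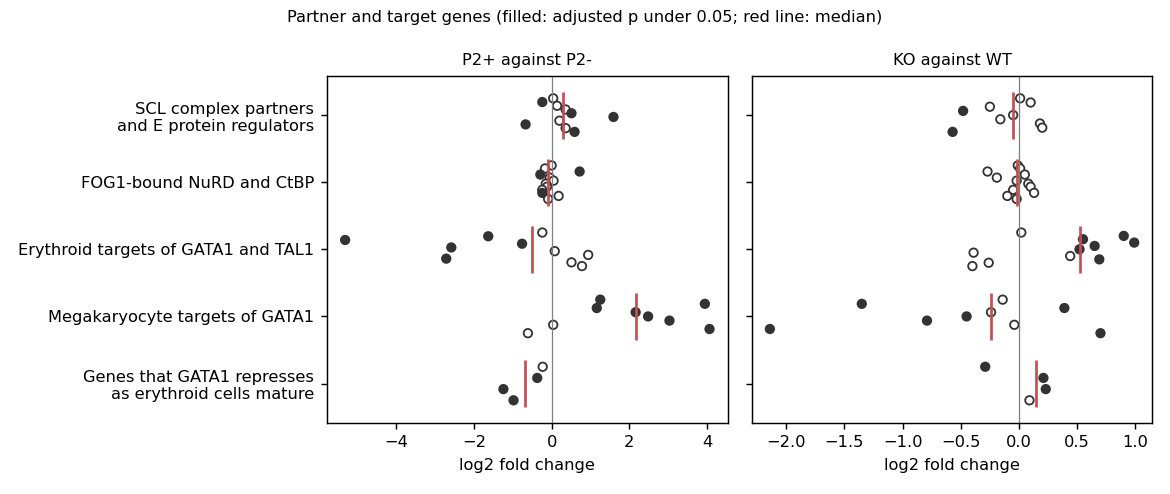
Log2 fold changes of partner and target genes in P2+ against P2- and in KO against WT PreMegEs (horizontal axes differ), each point a gene, filled where the adjusted p is under 0.05, with the median of the list as a line. The megakaryocyte targets lie mostly to the right in P2+ (median 2.16) and the erythroid targets mostly to the right in the KO (median 0.52).

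Markers of cell types moved with the fractions and with the KO, and since the samples are bulk RNA, more cells of a type and more RNA per cell cannot be told apart. Their part in the differences above was not tested. In P2+ against P2-, 20.1% of all genes were higher and 17.0% lower, and in KO against WT 6.18% and 8.76%. Of 7 erythroid markers, 6 were tested and 5 were lower in P2+, with sums of 120 to 145 CPM in P2+, 977 to 1212 CPM in P2-, 702 to 739 CPM in WT and 944 to 1030 CPM in the KO. Of 7 megakaryocyte markers, all tested, 6 were higher in P2+, with sums of 755 to 1062 CPM, against 220 to 263 CPM in P2-, 535 to 559 CPM in WT and 462 to 470 CPM in the KO. All 4 stem cell markers were higher in P2+ and summed to 343 to 447 CPM, against 96.9 to 124 CPM in P2-, 281 to 303 CPM in WT and 140 to 175 CPM in the KO. Of 8 mast cell and basophil markers, 4 were tested and all 4 were higher in P2+. They summed to between 100 and 157 CPM in P2+, 31.8 and 37.6 CPM in P2-, 30.0 and 54.2 CPM in WT and 54.2 and 74.9 CPM in the KO. Of these markers, Cma1 and Tpsb2 were at 0 in all libraries, and Mcpt8 and Prss34 did not exceed 0.801 CPM. Ms4a2 lay at 49.9 to 90.0 CPM in P2+ and 7.20 to 10.8 CPM in P2-, and Cpa3 at 32.6 to 45.3 and 14.2 to 18.6 CPM. Of the 8 neutrophil and monocyte markers, which were all tested, 5 were higher in P2+, with sums of 112 to 262 CPM against 26.5 to 61.3 CPM in P2-, 85.4 to 208 CPM in WT and 30.5 to 68.9 CPM in the KO. Of 7 lymphoid markers, 5 were tested and 3 were higher, with sums of 28.3 to 80.2 CPM in P2+, 11.0 to 16.9 CPM in P2-, 25.1 to 38.2 CPM in WT and 18.0 to 20.7 CPM in the KO. In the KO against WT, 4 of 7 erythroid markers tested and 2 of 3 mast cell and basophil markers were higher, and none of these was lower. Of the neutrophil and monocyte markers 5 of 6 were lower, of the stem cell markers 3 of 4, and of the lymphoid markers 2 of 6, with none higher. Of 7 megakaryocyte markers, 2 were higher and 4 lower.

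Genes with profiles most like those of the GATA factors were sought over the 12 libraries among 9528 other genes with a mean of at least 10 CPM, by the root mean square difference of centred log2 CPM. For Gata1 the nearest were Mlx (0.060), Nat6 (0.069) and Tcf3 (0.071), beside a median of 0.274 over all genes. Tcf3, which is itself among the 9 genes, had means of 218, 273, 168 and 267 CPM in WT, P2-, P2+ and the KO, against 231, 271, 184 and 280 CPM for Gata1. For Gata2 the nearest were Arhgef2 (0.076), Smg6 (0.077) and Nt5m (0.079), beside a median of 0.231. These are descriptions over libraries that share groups, with no test.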

How the data were processed

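PreMegEs were sorted by the authors as Lineage- Sca1- cKit+ (LK) cells without CD41, CD16/32 and Endoglin and with CD150, and strand-specific poly(A) libraries were sequenced as read pairs. Per the study's methods, Bowtie2 placed the reads on GRCm38 and featureCounts assigned them to Ensembl genes. The counts deposited by the authors are whole numbers per gene and library, with no normalization. How reads of multiple alignment were counted is not given in the sources used here.

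From the counts, libraries were scaled by TMM in edgeR 4.0.16 (R 4.3.3), and genes with at least 1 CPM in 3 of the 6 libraries compared were compared by edgeR's quasi-likelihood test, with Benjamini-Hochberg adjustment over all genes tested. The study's methods used edgeR's exact test, which was run as an alternative with DESeq2 1.42.0, relative log expression scaling, library totals alone, no filter, a fit over all 12 libraries, a replicate block and each library left out. Log2 ratios of counts used a prior count of 0.5. Positions and exonic lengths came from GENCODE vM21 (GRCm38). Gene symbols were matched as in the table, and Epb42 by its Ensembl identifier.

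Libraries of P2+ and P2- with the same number deviated together from their group means (r = 0.402, 0.590 and 0.432 across genes) and had matching Xist, so the numbers pair them. Between other groups r did not exceed 0.186. It was highest for replicate 1, at 0.185 in P2+ against WT, 0.186 in KO against WT and 0.120 in KO against P2+. Outside the alternative with a replicate block, these libraries were not treated as pairs. Replicates of a group differed beyond sampling noise (chi-square per degree of freedom 4.62 to 35.0), and intervals or limits of counts cover counting error only.

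The 9 genes and the lists were chosen with earlier results of these data known. All 9 were named in every comparison. Of each list, up to 3 genes per direction with the largest log2 fold change among those passing the test in P2+ against P2- and in KO against WT were named, as were genes that missed the filter. Some list genes that this rule names are counted in their lists and not reported here. Epor, Gfi1b, Ssbp2, Ssbp4, Hbb-bt, Trim10, Slc4a1 and Hbb-bs were added with their values known.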

Additional observations from a re-analysis of the deposited data

How the results depend on the processing

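The fold changes of the 9 genes were recomputed in 711 alternatives, of which 656 kept their direction and side of the threshold, 31 lost a call, 17 gained one and 7 changed sign, none of these a call. The sign changes were in Lyl1 in P2+ against P2- (-0.09 to 0.01 with a library left out), Tal1 in P2- against WT (-0.01 to 0.06, and -0.03 with library totals alone), Tal1 in KO against P2- (-0.00 to 0.08), Tcf3 in KO against P2- (-0.07 to 0.01) and Gata2 in KO against P2+ (-0.05 to 0.06). For the list genes that the rule above names, 372 of 421 alternatives kept the call, 49 lost it and none changed sign.

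With each library left out in turn, the number of the 9 genes that differed was 5 in all cases for P2+ against P2-, 3 to 5 for P2+ against WT, 2 to 5 for P2- against WT, 3 to 5 for KO against WT, 0 to 1 for KO against P2- and 5 to 6 for KO against P2+. The log2 Gata2 to Gata1 ratio difference was 0.58 to 0.71 for P2+ minus P2- and -0.50 to -0.41 for KO minus WT. A minimum of 2-fold left 1 gene (Ldb1) in P2+ against P2-, 1 in P2+ against WT and 1 in KO against P2+, and 0 in P2- against WT, KO against WT and KO against P2-. edgeR's exact test left 1 (Lyl1) of 4 in P2- against WT. The fit over all 12 libraries left 3 in KO against WT (Gata2 and Ldb1 lost). In KO against P2-, library totals alone, DESeq2, no filter and the fit over all 12 libraries each gave 2, with Lmo2 added. The cause was not tested. At 2-fold, 12.7% of all genes passed in P2+ against P2- and 3.41% in KO against WT. The other counts in this paragraph are given without the share of all genes at the same setting. They describe the 9 genes alone.

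With the replicate block, the paired fit of P2+ and P2- kept the calls of all 5 genes. For KO against P2-, where the numbers do not pair the libraries, the block left 0 genes (Lyl1, adjusted p = 0.0659).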
